A study of Mus musculus with 22 samples.

Results

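Ependymal cells of the mouse hypothalamus were followed through their nuclei, as 184 of the 24965 nuclei (0.737%) in a single-nucleus RNA-seq dataset. The members are the nuclei that the study's deposited annotation names as ependymal. They came from 10 male ob/ob mice of 11 weeks, a strain that lacks leptin and becomes obese and diabetic, and each library held the hypothalamus of 1 mouse. Each mouse received a single intracerebroventricular (icv) injection of 3 µg of human fibroblast growth factor 1 (FGF1) or of vehicle, and vehicle mice were pair-fed to the intake of the FGF1 mice. Nuclei were taken 24 h later (Day 1) from 3 FGF1 mice (59 ependymal nuclei) and 3 vehicle mice (47), and on Day 5 from 2 FGF1 mice (67) and 2 vehicle mice (11).

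Ependymal cells form the ciliated epithelium of the ventricle wall, and the cilia on their apical surface move the cerebrospinal fluid (CSF). A motile cilium is built on an axoneme, in which dynein arms slide microtubule doublets past each other while radial spokes and a central pair set the beat. Forkhead factor Foxj1 and the RFX factors switch on the genes of this machinery. Ependymal cells face the fluid into which FGF1 was injected, next to tanycytes, the ventricular cells with few or no cilia and long basal processes.

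The annotation was first set against 3 markers. Ccdc153 and Tmem212, genes transcribed in ciliated epithelia, and Foxj1 stood at 490.9, 717.9 and 207.9 CPM (counts scaled to a common library total) in the pooled ependymal nuclei. In the next highest type, tanycytes, they stood at 11.5, 27.4 and 12.8 CPM. A unique molecular identifier (UMI, 1 counted RNA molecule) of Ccdc153 was found in 64.1% of the ependymal nuclei, of Tmem212 in 77.7% and of Foxj1 in 51.1%. Of the lists of other cell types, the astrocyte list was highest in the ependymal nuclei. It summed to 1444 CPM, against 1417 CPM for the 3 markers. The oligodendrocyte list summed to 570 CPM and the neuron list to 537 CPM. The tanycyte list summed to 652 CPM, and all 9 of its genes had a UMI. Rax, a defining tanycyte gene, was at 2.73 CPM (19.8 in tanycytes), Col25a1 at 194 (1329), and Scn7a, close to its tanycyte level, at 112 (129). The choroid plexus list summed to 106.7 CPM, with 6 of 7 genes detected. Its defining gene Ttr was at 0 UMIs, while the folate receptor Folr1, at 27.3 CPM, was higher than in any other type (up to 7.55). Their part in the results was not tested. The ependymal nuclei held a median of 3424.5 UMIs and 2189 genes, and summed UMIs per mouse ranged from 55743 to 81664 on Day 1 and from 15213 to 150600 on Day 5.

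One Day 5 library went against its label. The 3 ependymal nuclei labelled vehicle replicate 28 held 1 UMI of the 3 markers, a Tmem212 UMI, among 15213 UMIs. That is 65.7 CPM, against 1019 CPM in the 8 nuclei of vehicle replicate 38 and 505 to 2158 CPM in the other 8 mice. The same library was highest of the 10 in the summed level of the astrocyte list (3418 CPM, against 431 to 2485 in the others), the tanycyte list (1380 against 257 to 1219) and the oligodendrocyte list (1643 against 135 to 1258). The main Day 5 counts, list medians and tests of the day difference are therefore given without it as well. Of the 184 barcodes, 9 also occurred in another library, and none of these was ependymal there.

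The share of ependymal nuclei among all nuclei was low and varied between mice of a group. On Day 1 it was 0.362%, 0.908% and 1.61% in the FGF1 mice and 1.29%, 0.574% and 1.67% in the vehicle mice. The means, 0.962% ± 0.628 (SD, n = 3) and 1.18% ± 0.554, gave an exact two-sided permutation p of 0.7, where 3 against 3 mice allow no p below 0.1. On Day 5 the share was 1.40% and 0.624% in FGF1 mice and 0.0943% and 1.35% in vehicle mice (exact two-sided permutation p = 0.667, smallest possible 0.333). The ranges of the groups overlapped on both days.

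The first question was how FGF1 changed ependymal RNA on Day 1. Counts were summed per mouse, and edgeR tested 1456 genes for a difference between 3 FGF1 and 3 vehicle mice. It called 277 differentially expressed genes (DEGs) at a Benjamini-Hochberg FDR below 0.05, or 19% of those tested. Of these, 148 were higher (10.2%) and 129 lower (8.86%) after FGF1, and the CPM of 271 did not overlap between the groups. Values did not overlap for 36.5% of all tested genes (18.4% with FGF1 higher, 18.1% lower), and the median log2 fold change of all tested genes was -0.05. Each batch of the deposited metadata held 1 FGF1 and 1 vehicle mouse, and with the batch as a block 214 genes were called. Values of single genes below are CPM over the UMIs of the genes tested in each comparison, scaled by TMM, except where stated. That total differs between tests, so levels of a gene from different tests cannot be set beside each other. Summed levels of lists and markers are CPM over all UMIs without that scaling and cannot be set beside the single genes. Fold changes are FGF1 over vehicle, and errors of a fold change are standard errors (SE). In a sum over nuclei, fewer transcripts per nucleus and fewer nuclei that transcribe a gene cannot be told apart, so shares of nuclei are given as well. A gene that is high in a single group can pass the filter on low counts through that group alone, so counts and medians over the tested members of a list only describe those members.

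The marker genes and the cilium genes came first. Ccdc153 (chromosome 9, 44240676 to 44247306, GRCm38) stood at 238, 142 and 273 CPM in the FGF1 mice and at 1305, 1523 and 1231 CPM in the vehicle mice. All 3 FGF1 mice lay below all 3 vehicle mice, and the log2 fold change was -2.65 ± 0.34 (FDR 5.15e-05). Tmem212 stood at 358, 641 and 957 CPM against 1957, 2176 and 1260 CPM, again without overlap, and fell by 1.47 ± 0.35 on the log2 scale (FDR 0.00658). Foxj1, the transcription factor that opens the multiciliation programme, was not called. Its 387, 451 and 410 CPM after FGF1 lay within the 208 to 601 CPM of the vehicle mice (log2 0.19 ± 0.40, FDR 0.784), and no tested gene of the 5 multiciliation regulators was called.

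**Figure D1:**
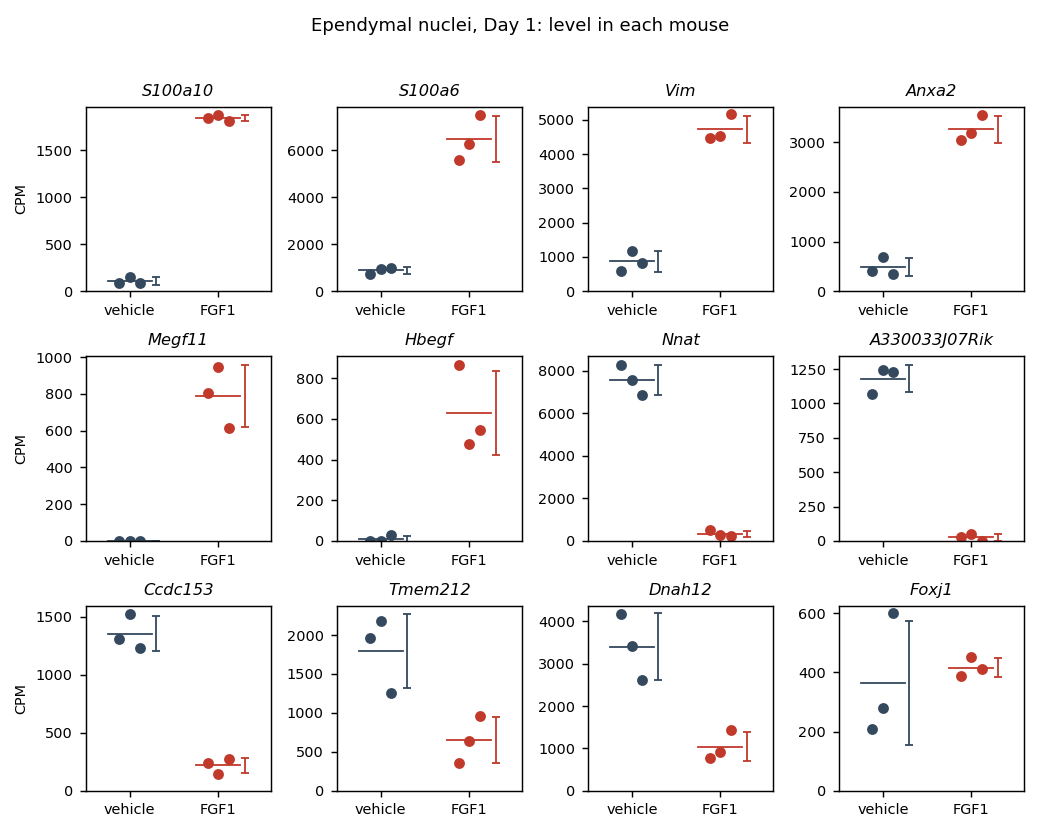
CPM of 12 genes in the ependymal nuclei of each Day 1 mouse (points), with the group mean (line) and SD (bar), on linear axes that start at 0. S100a10, S100a6, Vim, Anxa2, Megf11 and Hbegf were higher after FGF1, Nnat, A330033J07Rik, Ccdc153, Tmem212 and Dnah12 were lower, and the Foxj1 values overlapped.

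Of 36 listed genes for dynein arms and their assembly, 19 were tested, and 9 of these reached the filter's level in the vehicle mice only. Of the 19, 7 fell (36.8%, against 8.86% of all tested genes) and 0 rose, and 17 had a negative fold change (median log2 -0.60). Of the 10 that reached the level in both groups, 2 fell, against 31 of the 552 such genes in all. Dnah12, an inner arm heavy chain, stood at 775, 925 and 1435 CPM after FGF1 and at 4181, 3419 and 2606 CPM after vehicle (log2 -1.71 ± 0.34, FDR 0.00188). The outer arm heavy chain Dnah5 stood at 119, 285 and 239 CPM against 712, 870 and 630 CPM (-1.74 ± 0.36, FDR 0.00286). The light chain Dynlrb2 stood at 179, 190 and 171 CPM against 682, 715 and 659 CPM (-1.90 ± 0.35, FDR 0.00097). None of these values overlapped between the groups. Dnah7a (-1.39), Dnah7b (-1.12), Dnah10 (-1.68) and Dnal1 (-1.37) made up the rest of the 7. Dnah7a and Dnah7b are near-identical copies, so their reads may have been split between them.

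Of 85 listed genes for radial spokes, the central pair and their neighbours, 41 were tested, 5 fell and 0 rose. The 12.2% that fell was near the 8.86% of all tested genes, so the count says nothing particular of this list. The median was -0.45, with 37 negative values. Ttll3, which adds glycine to tubulin, stood at 268, 237 and 205 CPM against 889, 1399 and 830 CPM (log2 -2.11 ± 0.35, FDR 0.000476), and its gene body overlaps that of Arpc4 on the same strand. Cfap74, a central pair protein, stood at 447, 308 and 239 CPM against 1156, 1088 and 1059 CPM (-1.72 ± 0.32, FDR 0.0012). Ccdc39 (-1.58), a ruler of axoneme repeats, Ccdc162 (-1.09) and Ccdc108 (-0.92) also fell. Rsph1, a radial spoke head protein, was not called (-0.11 ± 0.39, FDR 0.874). Of 7 tested genes of intraflagellar transport and the BBSome, which carry cargo along the cilium, none was called and the median was -0.63. DESeq2 called 4 dynein and 2 spoke genes, among 171 genes called in all. Without FGF1 replicate 1 the counts were 4 and 2, and without vehicle replicate 2 they were 3 and 2. Spoke genes were at 3 without FGF1 replicate 3 or vehicle replicate 1. In none of these fits was a member of either list called higher. The count over all genes also changed between fits, and was 175 without vehicle replicate 1. Fewer calls in these lists can therefore not be told from fewer calls in all.

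**Figure D2:**
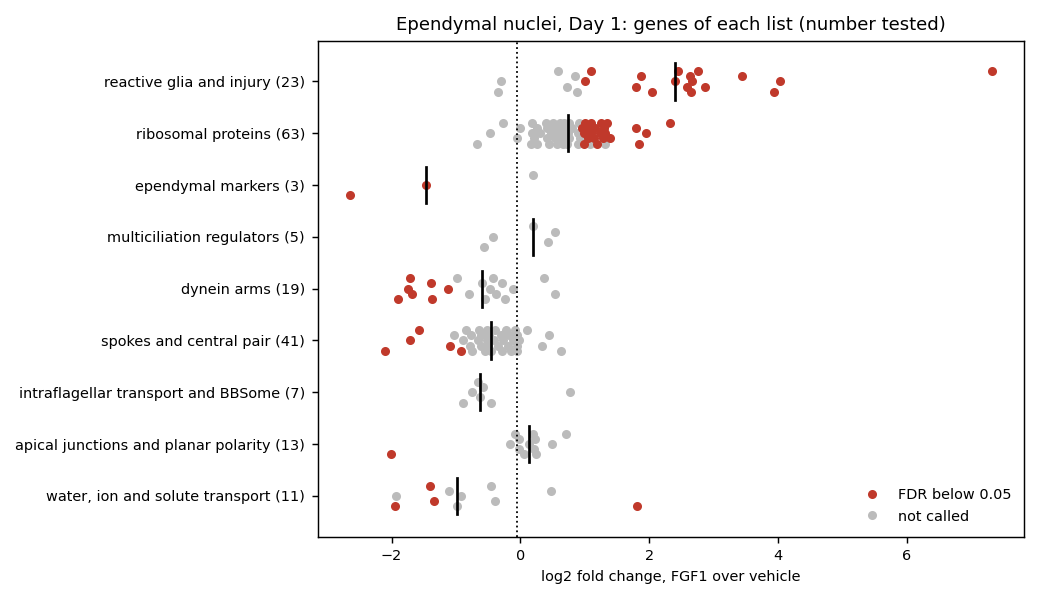
Log2 fold change (FGF1 over vehicle) of each tested gene of 9 lists in the Day 1 ependymal nuclei, with the number tested in parentheses. Red points are DEGs, black lines are list medians and the dotted line is the median of all tested genes at -0.05. The medians of the tested members are 2.40 for the reactive list, -0.60 for the dynein list and -0.45 for the spoke list, and the point farthest right is Tgm1, whose fitted value rests on a vehicle group with no UMI.

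The promoters of these genes were read for the letters that ciliary regulators recognise. RFX factors bind X-boxes, of which GTTGCC is a core. In the 250 bases before the RefSeq start (GRCm38.p6), GTTGCC was found on either strand in 7 of 12 promoters of the marker and cilium genes that fell (58.3%; 14 genes, 12 with a promoter in the table). It was found in 13 of 49 promoters of cilium genes tested and not called (26.5%), in 172 of 1115 of all tested genes (15.4%) and in 3195 of 27025 in the whole table (11.8%). The forkhead letters GTAAACA were in none of the 12 and in 3.54% of the table. A match is a description of letters, not of a bound site. Windows around the X-box letters are shown for 4 genes that fell, 5′ to 3′ on the gene's strand, with GTTGCC or its reverse complement GGCAAC in capitals.
Ccdc153 (chr9:44240500-44240555, + strand): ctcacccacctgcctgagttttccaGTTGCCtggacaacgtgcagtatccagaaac
Dnah7a (chr1:53706954-53707009, - strand): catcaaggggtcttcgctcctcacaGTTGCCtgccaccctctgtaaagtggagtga
Dnah7b (chr1:46066665-46066720, + strand): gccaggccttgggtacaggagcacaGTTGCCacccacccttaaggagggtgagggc
Ttll3 (chr6:113392373-113392428, + strand): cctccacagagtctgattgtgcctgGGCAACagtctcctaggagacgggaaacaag

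The 45 listed genes of reactive glia and injury, tested or not, summed to 17822, 17045 and 19518 CPM in the FGF1 mice and to 3945, 4652 and 5070 CPM in the vehicle mice, without overlap. The filter left 23 of them to be tested and 22 untested, and 14 of the 23 reached its level in the FGF1 mice only. Of the 23, 17 rose (73.9%, against 10.2% of all tested genes) and 0 fell, and the median log2 fold change was 2.40. Of the 7 that reached the level in both groups, 5 rose and 0 fell, with a median of 1.10, against 34 that rose among the 552 such genes in all. The list includes small calcium-binding S100 proteins, the annexin that S100a10 binds, and intermediate filaments. S100a10 (chromosome 3, 93555080 to 93564643) stood at 1847, 1874 and 1811 CPM after FGF1 and at 88.9, 155 and 85.9 CPM after vehicle (log2 4.03 ± 0.37, FDR 1.82e-06). All 3 FGF1 mice lay above every vehicle mouse. Its partner Anxa2 (chromosome 9, 69453620 to 69491795) stood at 3039, 3179 and 3554 CPM against 415, 684 and 344 CPM (2.76 ± 0.34, FDR 3.67e-05). S100a6 stood at 5601, 6264 and 7519 CPM against 712, 933 and 1002 CPM (2.87 ± 0.34, FDR 2.94e-05). S100a4 (3.93), S100a11 (2.66) and S100a16 (2.40) rose as well, and S100a1 and S100b were not called.

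The paper names Vim, an intermediate filament gene, as a marker shared by ependymal cells and tanycytes and also as one of reactive astrocytes. It stood at 4469, 4532 and 5161 CPM against 593, 1181 and 830 CPM (log2 2.44 ± 0.34, FDR 0.000102). Nes, a filament of neural progenitors, stood at 685, 925 and 376 CPM against 88.9, 0 and 85.9 CPM (3.43 ± 0.57, FDR 0.000543). Gfap, the filament of astrocytes, was not called, and its 1341, 1874 and 684 CPM overlapped the 504, 404 and 1460.3 CPM of vehicle mice (0.73 ± 0.51, FDR 0.37). Cd44, a hyaluronan receptor, rose by 2.62, Serpina3n, a protease inhibitor of reactive glia, by 2.58, Lgals3, a galectin, by 2.04, and Plat, the tissue plasminogen activator, by 1.80. Tgm1, a transglutaminase that cross-links proteins at the cell surface, stood at 655, 427 and 684 CPM and was without a UMI in all 3 vehicle mice, which makes it at least 19.8-fold higher against a floor of 3 counts over the group. Cp, Anxa5 and Cd63 were the other members not called.

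The letters TGANTCA, which AP-1 factors recognise, were found in 4 of the 15 promoters of the reactive genes that rose (26.7%; 17 genes, 15 with a promoter), in 72 of 1115 of all tested genes (6.46%) and in 7.82% of the table. No gene of the immediate early list, which holds the AP-1 genes, passed the filter on low counts. The windows of 3 reactive genes are shown with the AP-1 letters in capitals.
Anxa2 (chr9:69453563-69453619, + strand): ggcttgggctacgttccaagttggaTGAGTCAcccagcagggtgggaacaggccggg
S100a11 (chr3:93520335-93520391, + strand): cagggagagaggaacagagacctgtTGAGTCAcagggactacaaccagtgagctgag
S100a16 (chr3:90540929-90540985, + strand): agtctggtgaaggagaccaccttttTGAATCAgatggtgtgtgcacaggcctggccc

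Genes of EGF signalling and of the cell cycle followed. Megf11, a transmembrane protein with EGF repeats (chromosome 9, 64385626 to 64709205), stood at 804, 949 and 615 CPM in the FGF1 mice and had no UMI in 47 vehicle nuclei, which makes it at least 26.5-fold higher. Hbegf, an EGF receptor ligand, stood at 864, 475 and 547 CPM against 0, 0 and 28.6 CPM (log2 5.53 ± 0.71, FDR 5.15e-05). Ccnd1, the cyclin of the entry into the cell cycle, stood at 566, 569 and 410.1 CPM against 0, 31.1 and 0 CPM (5.27 ± 0.74, FDR 0.000102). It was 1 of 2 tested cell cycle genes, and the other, Ccnd3, was not called (-0.16). The vehicle values of Hbegf and Ccnd1 came from 1 UMI each. Of the 6 tested EGF family genes, Megf9 fell (-1.35 ± 0.43, FDR 0.0351). Smad3, which carries TGF-beta signals to the nucleus, rose by 2.70 ± 0.46 (FDR 0.00059).

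The FGF receptors Fgfr1 and Fgfr2 were the only tested members of the 25 genes of FGF reception and MAPK feedback, and neither was called. Fgfr1 stood at 745, 641 and 342 CPM against 385, 528 and 487 CPM (log2 0.32 ± 0.34, FDR 0.57). Fgfr2 stood at 328, 427 and 615 CPM against 563, 901 and 859 CPM (-0.77 ± 0.33, FDR 0.117). The summed level of the whole list was 1761, 1408 and 1668 CPM in FGF1 mice and 948, 1204 and 1189 CPM in vehicle mice, without overlap, but single feedback genes were too low to be tested. The immediate early list summed to 1087, 514 and 1184 CPM against 321, 181 and 444 CPM, also without overlap.

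Other genes that rose include Cdh13, a cadherin without a cytoplasmic tail, at 1609, 1258 and 1709 CPM against 237, 124 and 200.4 CPM (log2 2.99 ± 0.35, FDR 2.44e-05). Nav2, a neuron navigator protein, stood at 4945, 6976 and 4375 CPM against 534, 1026 and 945 CPM (2.70 ± 0.36). Peak1, a pseudokinase of the cytoskeleton, rose by 3.99 ± 0.45, and Ttc9 by 3.36 ± 0.39. Airn, a long RNA that runs antisense to Igf2r, rose by 2.55 ± 0.36. FDRs of these 5 ran from 1.80e-05 to 0.000102.

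Nnat, an imprinted gene for a small membrane proteolipid (chromosome 2, 157560078 to 157562522), fell. It stood at 506, 285 and 239 CPM after FGF1 and at 8272, 7585 and 6872 CPM after vehicle (log2 -4.45 ± 0.40, FDR 1.82e-06). The other 3 tested members of the list of imprinted genes were not called, among them Meg3 (0.86 ± 0.35, FDR 0.0952) and Gnas (0.75 ± 0.30, FDR 0.0951). Airn, an imprinted RNA that rose as given above, was not on that list. A330033J07Rik, a long RNA transcribed opposite to Id4 (chromosome 13, 48044231 to 48262623), stood at 29.8, 47.5 and 0 CPM against 1067, 1243 and 1231 CPM (-5.21 ± 0.48, FDR 1.82e-06).

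Of 30 listed transport genes 11 were tested, of which 3 fell (27.3%, against 8.86% of all tested genes), 1 rose (9.09%, against 10.2%) and 7 were not called, with a median of -0.99. The filter's level was reached in both groups by 5 of the 11, of which 2 fell, and in the vehicle mice only by 3. Slc1a3, the GLAST glutamate transporter, stood at 715, 593 and 342 CPM against 2520, 1772 and 2176 CPM (log2 -1.95 ± 0.32, FDR 0.000486). Slc1a2, the GLT-1 transporter (-1.35 ± 0.37, FDR 0.0145), and Slc4a4, a sodium bicarbonate cotransporter (-1.40 ± 0.35, FDR 0.00825), also fell, and the chloride channel protein Clic1 rose (1.81 ± 0.43, FDR 0.00707). Gja1, the connexin of glial gap junctions, stood at 268, 119 and 171 CPM against 800.5, 591 and 830.4 CPM (-2.004 ± 0.38, FDR 0.0012) and was the only one of 13 tested junction and polarity genes to be called. Sparcl1, a secreted matrix protein of glia, stood at 417, 379.6 and 102.5 CPM against 1986, 1616 and 1804 CPM (-2.53 ± 0.37, FDR 0.000155). Pdgfd, a PDGF ligand, fell by 3.84 ± 0.66, Slc38a1, a glutamine transporter, by 1.99 ± 0.34, Acss3 by 2.79 ± 0.47, Tmem47 by 2.13 ± 0.37, the atypical kinase gene Mapk4 by 2.62 ± 0.40, Tmem232 by 3.39 ± 0.45 and Unc5cl by 2.72 ± 0.39. Of 6 glycolysis genes tested, Aldoc, an aldolase of astrocytes, fell (-1.45 ± 0.35) and Eno1 rose (1.48 ± 0.46). The summed astrocyte list was 1041, 722 and 431 CPM in FGF1 nuclei and 1345, 1485 and 1489.6 CPM in vehicle nuclei. Also lower without overlap were the oligodendrocyte list (135 to 367 against 489 to 775 CPM), the endothelial list (35.9 to 73.5 against 82.5 to 329) and the choroid plexus list (24.5 to 61.2 against 100 to 165). The lists of the other cell types overlapped. The part of astrocyte RNA in the falls of Slc1a2, Slc1a3, Sparcl1 and Aldoc, all genes of astrocytes too, was not tested.

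Of 83 listed ribosomal protein genes, 63 were tested, 22 rose (34.9%, against 10.2% of all tested genes), 0 fell and the others were not called. The filter's level was reached in the FGF1 mice only by 25 of them, and of the 34 that reached it in both groups 10 rose. Of the 63, 58 values were positive, and the median log2 fold change was 0.73. Rpsa, a protein of the small subunit, stood at 1936, 1519 and 1367 CPM against 415, 404 and 515 CPM (1.84 ± 0.30, FDR 0.000486), and Rps4x at 953, 1020.3 and 1059.5 CPM against 326, 249 and 286 CPM (1.80 ± 0.31). Summed UMIs of ribosomal protein genes were 2.54% to 3.10% in FGF1 mice and 1.49% to 1.87% in vehicle mice, and mitochondrial UMIs 0.0612% to 0.0879% and 0.0874% to 0.142%. Their part in the ribosomal values was not tested. DESeq2 called 8 of these 63 genes, among 171 genes called in all. That total counts rises and falls together, so the shares are not set beside the 10.2% above. The count was 12, 14, 9, 6 and 15 without FGF1 replicate 1, FGF1 replicate 3, vehicle replicate 1, vehicle replicate 2 and vehicle replicate 3, none of them lower, and 12 with the batch block. All genes called numbered 175 without vehicle replicate 1 and 214 with the batch block. Fewer calls among ribosomal genes can therefore not be told from fewer calls in all.

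Within single nuclei the 2 main changes differed in spread. The 45 reactive genes took a median of 1.81%, 1.59% and 1.99% of a nucleus's UMIs in the FGF1 mice and of 0.377%, 0.409% and 0.511% in the vehicle mice. Of the 59 FGF1 nuclei, 49 lay above the highest of the 47 vehicle nuclei (1.15%), and all of them had at least 0.561%. The dynein, spoke and central pair genes took a median of 1.95%, 2.11% and 2.22% in FGF1 mice and of 3.07%, 4.07% and 2.18% in vehicle mice. Here the nuclei overlapped, the median of vehicle replicate 3 lay between those of FGF1 replicates 2 and 3, and 9 of 59 FGF1 nuclei lay above the vehicle median. No nucleus after FGF1 was without axoneme RNA, with a lowest share of 0.657%.

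**Figure D3:**
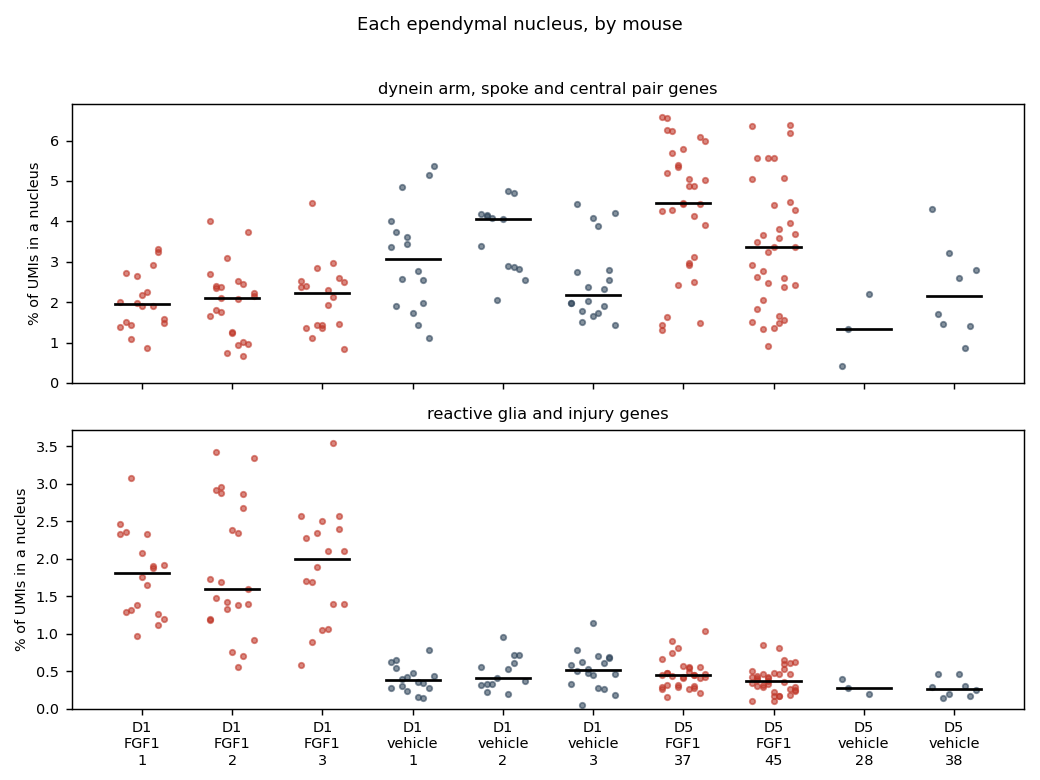
Share of each ependymal nucleus's UMIs (percent) in dynein arm, spoke and central pair genes (top) and in reactive glia and injury genes (bottom), by mouse (D1, Day 1; D5, Day 5); black lines are medians. Reactive shares of the 3 Day 1 FGF1 mice have medians of 1.59% to 1.99%, all other mice lie at 0.511% or lower, and the axoneme medians are highest in Day 5 FGF1 replicate 37 (4.46%) and Day 1 vehicle replicate 2 (4.07%).

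The share of nuclei with a UMI was compared after each nucleus had been thinned to 1300 UMIs, which left none out. S100a6 was then found in 57 of 59 FGF1 nuclei (96.6%, exact 95% interval 88.3 to 99.6) and in 20 of 47 vehicle nuclei (42.6%, 28.3 to 57.8). Vim was found in 94.9% and 36.2%, Anxa2 in 88.1% and 23.4%, and S100a10 in 72.9% and 4.26%. Intervals cover counting error only, over nuclei pooled from 3 mice, and the lowest FGF1 mouse lay above the highest vehicle mouse for each of these genes. Hbegf was found in 32.2% of FGF1 nuclei and 2.13% of vehicle nuclei, and Megf11 in 30.5% and in 0 of 47, which allows a share of up to 6.38% of nuclei with a UMI and sets no limit on nuclei that transcribe the gene. Nnat went the other way, from 93.6% of vehicle nuclei to 15.3% of FGF1 nuclei. Ccdc153 (48.9% and 18.6%), Dnah12 (83.0% and 39.0%), Slc1a3 (63.8% and 27.1%) and Sparcl1 (59.6% and 16.9%) were also in fewer FGF1 nuclei, and Foxj1 was in 31.9% and 28.8%. Without thinning, Vim was in 98.3% of FGF1 and 80.9% of vehicle nuclei, and Nnat in 42.4% and 100%. Unmapped neurons served as the background for the S100 genes, Vim, Hbegf and Megf11 at the same 1300 UMIs, with median depths of 2214 (FGF1) and 3228.5 UMIs (vehicle) before thinning and of 2957 and 3439 in ependymal nuclei. There S100a6 was in 14.98% of FGF1 and 1.87% of vehicle nuclei, Vim in 7.42% and 0.560%, S100a10 in 9.36% and 1.68%, Hbegf in 1.30% and 0.513% and Megf11 in 4.28% and 4.10%. The vehicle share of S100a10 in ependymal nuclei was close to its background. Neurons held Nnat in 25.3% and 35.1% of nuclei and are no background for it.

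**Figure D4:**
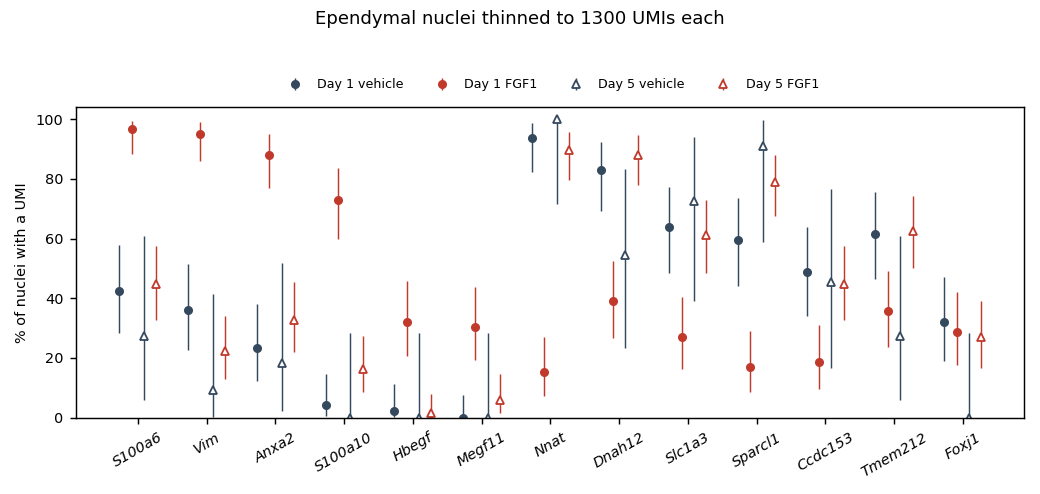
Percent of ependymal nuclei with a UMI of each gene after thinning to 1300 UMIs per nucleus, with exact 95% intervals, for Day 1 (filled circles) and Day 5 (open triangles), FGF1 in red and vehicle in dark blue. On Day 1 the S100a6, Vim, Anxa2 and S100a10 shares are higher and the Nnat, Dnah12, Slc1a3 and Sparcl1 shares lower after FGF1, while on Day 5 the FGF1 and vehicle intervals overlap for all 13 genes.

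On Day 5 the question was what remained of this response. With 2 mice per group, edgeR tested 2128 genes and called none (0%), while 11.4% (242) had an unadjusted p under 0.05. DESeq2 called 0 as well. Values did not overlap for 47.9% of the tested genes (26.8% with FGF1 higher, 21.1% lower). With the batch as a block the count was 0. The lowest p belonged to Ptgds, the prostaglandin D synthase of meninges, choroid plexus and oligodendrocytes, at 42.1 and 221 CPM in the FGF1 mice and 468 and 2612 CPM in the vehicle mice (log2 -3.68 ± 0.70, FDR 0.0592). Next below were Cox8a (-2.46 ± 0.63), Sqstm1 (-2.53 ± 0.68), mt-Nd1 (-2.23 ± 0.61) and mt-Co1 (-1.84 ± 0.50). Vehicle replicates 28 and 38 had the highest mitochondrial shares of the 10 mice (0.598% and 0.316%, against 0.0612% to 0.171%). Their part in the values of mt-Nd1 and mt-Co1 was not tested. The genes of lowest p with a higher level after FGF1 were Sptlc3 (515 and 319 CPM against 0 and 0, at least 4.63-fold higher), the dynein heavy chains Dnah3 (873 and 553 CPM against 0 and 133) and Dnah6 (1577 and 1167 CPM against 187 and 354), Rassf9 (452 and 639 CPM against 0 and 88.5) and Lekr1 (694 and 540.4 CPM against 93.6 and 88.5). These 5 and the 4 genes after Ptgds had an FDR of 0.237. Without vehicle replicate 28, 4 genes were called, namely Ptgds (-4.25), Sptlc3, Cdh13 (-2.85) and Rorb (-2.03), with the single vehicle mouse assumed to vary as the FGF1 mice do. Without vehicle replicate 38, which leaves the 3 nuclei of replicate 28, the count was 57, of which 44 were higher and 5 were dynein genes.

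No cilium gene passed the test on Day 5, and the values below rest on 2 vehicle mice, 1 of which held a single UMI of the markers. The fitted log2 fold changes of all 21 tested dynein genes were positive (median 1.21, against 0.08 for all tested genes), as were 48 of 50 spoke and central pair genes (1.07) and 13 of 14 genes of intraflagellar transport (0.72). Without vehicle replicate 28, which leaves a single vehicle mouse, the medians were 0.80 (27 dynein genes tested), 0.87 (62 spoke genes) and 0.52 (28 genes of intraflagellar transport), against 0.10 for all tested genes. Axoneme genes took 4.39% and 3.50% of all UMIs in the FGF1 mice and 1.14% (replicate 28) and 2.25% (replicate 38) in the vehicle mice, while the 3 vehicle mice of Day 1 ranged from 2.38% to 3.57%, a range that holds FGF1 replicate 45 (3.50%). Among reactive genes 11 were tested, with a median of 0.87 (0.69 over 18 genes without replicate 28), and none was called. Vim stood at 358 and 307 CPM against 187 and 177 CPM, with an FDR of 0.647. The ribosomal median was -0.50, and -0.12 without replicate 28.

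The Day 1 DEGs were looked up on Day 5, in other mice. Of the 148 that had risen, 80 were tested on Day 5 and 35 of these had a positive fold change, with a median of -0.20 (1.30 on Day 1). Of the 129 that had fallen, 124 were tested, 33 had a negative fold change, and the median was 0.49 (-1.52 on Day 1). Without vehicle replicate 28 the medians were -0.06 and 0.33, with 35 and 39 genes in their Day 1 direction. On a common scale over all 10 mice, Nnat stood at 3989 and 2833 CPM (FGF1) and at 10441 and 5843 CPM (vehicle) on Day 5, S100a6 at 673 and 530.5 CPM against 373 and 567 CPM, and S100a10 at 194 and 109 CPM against 93.2 and 131 CPM. The Nnat levels of the 2 FGF1 mice lay below both vehicle mice, without a call (FDR 0.381).

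The FGF1 effects of the days were compared through an interaction term fitted to the 10 mice. The test called 120 of 2394 genes (5.01%), 79 with a higher effect on Day 5 (3.3%) and 41 with a lower one (1.71%). Higher and lower refer to the signed log2 fold change, so a higher effect can be a smaller fall. This test holds the Day 1 mice again, and the days held different mice and batches, so that day and batch cannot be told apart. The test called Tmem212 and Ccdc153 of the 3 markers, 6 of 22 dynein genes (median difference 2.01) and 7 of 47 spoke genes (1.51) with a higher effect on Day 5 and none with a lower one. Dnah12 stood at 885 (FGF1) and 2742 CPM (vehicle) on Day 1 and at 3778 and 971 CPM on Day 5, as group means, and the difference of the log2 effects was 3.47 ± 0.67 (FDR 0.00466). Wdpcp, a planar polarity gene of ciliogenesis (294 and 624.5, then 646 and 112 CPM), Rgs22 and Rp1, an axoneme microtubule protein of photoreceptors, went the same way. Of 26 reactive genes, S100a6 (-2.64), S100a10 (-3.74) and Cd63 (-2.08) had a lower effect on Day 5. Rfx4 (3.43, FDR 0.0137), an RFX factor of brain development, Id4 (3.398) and Gja1 (2.20) had a higher one, and 9 of 67 ribosomal protein genes a lower one.

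Vehicle replicate 28 also bore on this test. Without it 70 genes were called, 61 of them among the 120, and Dnah12 (3.06), Tmem232 (4.71), Tmem212 (2.79), Ccdc153 (2.91), S100a6 (-2.70), Rfx4 (3.27) and Gja1 (2.48) were still called. S100a10 (-3.73, FDR 0.0758), Cd63 (-1.62, FDR 0.192) and Id4 (3.30, FDR 0.0733) were not called then, and Megf11, Traf5, Rpsa and Sumf1 were not either (FDR 0.0935, 0.0673, 0.0832 and 0.166). No ribosomal protein gene was called. A higher effect on Day 5 was then called for 3 of 24 dynein and 3 of 54 spoke genes, against 51 of all 3157 genes tested. Without vehicle replicate 38, which leaves the 3 nuclei of replicate 28 as the only Day 5 vehicle, the count was 232, of which 90 were shared. A higher effect was then called for 14 of 24 dynein and 20 of 55 spoke genes, against 197 of all 3294. The effect difference of Cdh13 (-5.33) then turned to 2.06, and replicate 28 had no UMI of this gene.

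Tanycytes line the same ventricle, and the Day 1 effect was compared between these cell types in the same mice, with the mouse as a block. Of 2484 genes, 34 differed (1.37%). The signed log2 fold change was higher in ependymal nuclei for 25 (1.01%), which can mean a smaller fall, and lower for 9 (0.362%). The higher ones were cilium genes to a large part, with 4 of 21 dynein genes (median difference 2.08) and 12 of 43 spoke and central pair genes (1.81). Of these, Cfap43, Dnah6 and Ak7 were not called in the Day 1 test of ependymal nuclei alone, and their values are given for both types. Cfap43, an axoneme protein, stood at 603 ± 111 (FGF1) and 943 ± 183 CPM (vehicle, SD, n = 3) in ependymal nuclei and at 28.6 ± 16.1 and 414 ± 76.3 CPM in tanycyte nuclei (difference of the log2 effects 3.04 ± 0.53, FDR 0.0068). Dnah6 stood at 765 and 939.6 CPM in ependymal nuclei and at 4.72 and 162 CPM in tanycyte nuclei (3.90 ± 0.73). Ak7, an adenylate kinase of cilia, stood at 823 and 1216 CPM and at 15.9 and 266 CPM (3.30 ± 0.60). The tanycyte FGF1 level came from 3 UMIs for Dnah6 and from 7 for Ak7. Axoneme genes took 0.261%, 0.268% and 0.267% of UMIs in tanycyte nuclei of FGF1 mice and 0.901%, 0.978% and 0.742% in those of vehicle mice. In ependymal nuclei they took 2.05%, 1.96% and 2.08% and 3.00%, 3.57% and 2.38%. The groups did not overlap in either type. In astrocyte nuclei the shares were 0.138% to 0.183% after FGF1 and 0.204% to 0.290% after vehicle. In tanycytes Ccdc153 stood at 0 to 6.65 CPM and 13.4 to 28.0 CPM, here over all UMIs without TMM scaling. The part of ependymal RNA in the tanycyte values was not tested.

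**Figure D5:**
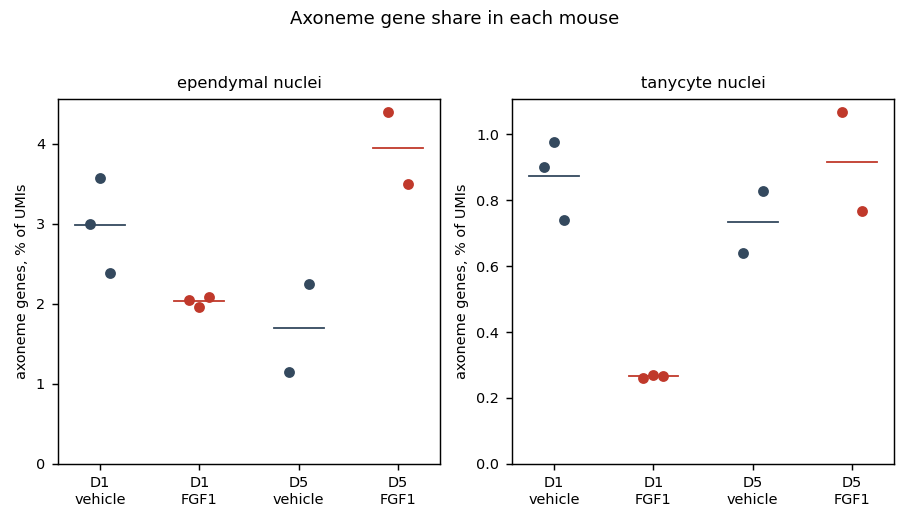
Share of all UMIs (percent) in 107 dynein arm, spoke and central pair genes, for each mouse (points) with group means (lines), in ependymal nuclei (left) and tanycyte nuclei (right), on separate axes that start at 0. On Day 1 the FGF1 mice lie below the vehicle mice in both types, at 1.96% to 2.08% and at 0.261% to 0.268%, and in ependymal nuclei Day 5 FGF1 replicate 37 lies highest at 4.39%, ahead of Day 1 vehicle replicate 2 at 3.57%.

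Tm4sf1, a tetraspanin-like surface protein of migrating cells, had a smaller effect in ependymal nuclei. It stood at 1341 and 661 CPM in ependymal nuclei and at 1445 and 40.6 CPM in tanycyte nuclei (difference of the log2 effects -4.07 ± 0.54, FDR 0.00018), so the FGF1 levels were close and the vehicle levels apart. Timp3, an inhibitor of metalloproteinases (210 and 412 against 705 and 281 CPM), Clu, a secreted chaperone (1471 and 1516 against 1861 and 604 CPM), and Apbb2 (898 and 651 against 994 and 196 CPM) also had a lower effect in ependymal nuclei. Tm4sf1 was called with each mouse left out, and Timp3, Clu and Apbb2 with 3, 1 and 1 of the 6. No other of the 30 tested reactive genes and none of 70 ribosomal protein genes was called, and the medians of the differences were -0.30 and -0.42. The levels of Nnat, S100a10 and Hbegf in tanycytes and in astrocytes did not overlap between the groups either. These levels, those in the sum of all other nuclei and those of Megf11 in tanycytes and astrocytes are CPM over all UMIs without TMM scaling. Nnat stood at 151 to 366 CPM (FGF1) and 4192 to 5976 CPM (vehicle) in tanycytes and at 122 to 671 and 1270.4 to 2366 CPM in astrocytes, and Hbegf at 126 to 369 and 0 to 14.02 CPM in tanycytes. S100a10 was also higher in the sum of all other nuclei, at 75.7 to 224 CPM against 9.13 to 24.7 CPM, and the part of free RNA in these values was not tested. Against astrocytes, no gene of 4270 differed in edgeR (0%), 254 had an unadjusted p below 0.05 (5.95%), and DESeq2 called Tm4sf1, Megf11 and S1pr3. Megf11 stood at 13.4 to 57.6 CPM (FGF1) and 12.4 to 54.8 CPM (vehicle) in astrocytes. In tanycytes it was also higher without overlap, at 189 to 213 CPM (FGF1) and 7.13 to 28.0 CPM (vehicle).

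Whole cells of Day 5 came from a separate cohort of 12 ob/ob mice of 11 weeks, 6 per group, given 3 µg of FGF1 or vehicle. Vehicle mice were pair-fed, and the paper names a different supplier (Janvier) from that of the nuclei mice (Jackson). The hypothalami were dissociated with enzymes, and the authors removed cells of neuronal lineage from the data after clustering. Cluster 6, of 3575 cells, met all 3 ependymal markers and is called ependymal-like. Cells per mouse ranged from 19 (FGF1 replicate 6) to 627. Of 6734 genes, 86 were called (1.28%), 36 higher (0.535%) and 50 lower (0.743%), and values did not overlap for 1.07% of the tested genes (0.297% with FGF1 higher, 0.772% lower). Each batch again held 1 FGF1 and 1 vehicle mouse, and the batch block gave 151 DEGs.

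None of the 3 markers and none of 30 dynein genes was called there (medians -0.03 and 0.11), and of 68 spoke and central pair genes Mlf1 rose (0.60 ± 0.15) and Ak8 fell (-0.83 ± 0.20). Dnajb13, a cilium gene counted in neither list, rose (0.82 ± 0.19, FDR 0.0168). Ccdc153 stood at 1338 and 1541 CPM as group means (log2 -0.17 ± 0.15, FDR 0.712) and Foxj1 at 710 and 736 CPM (-0.03 ± 0.14). Of 26 reactive genes, 4 rose and 0 fell (median 0.27), against 0.535% higher and 0.743% lower among all tested genes. S100a6 ranged from 2263 over a median of 2757 to 3096 CPM in FGF1 mice and from 1435 over 1685 to 2264 CPM in vehicle mice (log2 0.65 ± 0.14, FDR 0.0143). S100a11 (0.67 ± 0.15, FDR 0.0145), Lgals3 (0.84 ± 0.17, FDR 0.00571) and Anxa2 (0.55 ± 0.14, FDR 0.0358) rose too, while S100a10 (0.37 ± 0.16, FDR 0.302), Vim (0.35 ± 0.14, FDR 0.242) and Nnat (-0.06 ± 0.46, FDR 0.992) were not called. Abca1, a cholesterol exporter, rose by 0.74 ± 0.17, and Capg, an actin capper, by 1.86 ± 0.36. Of the Day 1 DEGs of nuclei, 123 of the 148 that had risen were tested in whole cells, 79 with a positive fold change, 6 called higher and 1 called lower. Of the 129 that had fallen, 112 were tested, 68 with a negative fold change and 5 called lower. Among all genes tested in whole cells, 0.535% were called higher and 0.743% lower.

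Etnppl, a phospholyase of astrocytes, fell in the whole cells from 165 over 278 to 404 CPM in vehicle mice to 63.5 over 84.7 to 159 CPM in FGF1 mice (log2 -1.73 ± 0.20, FDR 1.91e-05). The groups did not overlap. S1pr1, a receptor for sphingosine 1-phosphate (-1.05 ± 0.19), and Hmgcs1, an enzyme of cholesterol synthesis (-0.97 ± 0.19), fell as well. Of the 8 genes of the astrocyte list, Aldoc and Gjb6 fell, against 0.743% of all tested genes. Of the 8, 7 were negative (median -0.61), and the part of astrocyte RNA in the cluster was not tested. Without FGF1 replicate 6, 97 genes were called.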

How the data were processed

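Hypothalami were frozen, and nuclei were isolated, captured with the 10x 3′ v2 chemistry and counted by the authors with Cell Ranger 1.2 against GRCm38 (mm10), introns included. The deposited nuclei table holds raw UMI counts of 20668 genes, and the cell types and batches are those of the deposited annotation. The study's stated limits were 400 to 4000 genes and at most 5% mitochondrial or ribosomal reads. The files hold no unit other than these deposited counts in what was used, and 0 columns lacked a sample. The nuclei were not screened for doublets.

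UMIs were added up within each mouse and cell type, and the sums were tested with edgeR 4.0.16 (R 4.3.3; TMM, filterByExpr, robust quasi-likelihood F test, Benjamini-Hochberg FDR below 0.05). DESeq2 1.42.0, other scalings and filters, and omitted mice were alternatives. Whole cells were grouped by the deposited cluster numbers. The members, gene lists and tests were chosen with earlier results of these data known. Of 530 listed symbols, 20 were not matched. Genes named are list members and, of DEGs whose values did not overlap on Day 1, the 15 of smallest p in each direction. In the other tests they are the 10 of smallest p in each direction, or 5 where none was called. Gene models ending in Rik are named only among the first 3. Some genes the rule would name are not reported here. Intervals and limits cover counting error only. The p-values of the gene tests weigh a difference against the spread that the fit leaves. In the comparisons of cell types the mouse is a block, so that spread is within mice.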

Additional observations from a re-analysis of the deposited data

Results flagged for a closer look

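The effect of FGF1 on ependymal nuclei differed between the days for 18 named genes, by the interaction test of edgeR with an FDR below 0.05. Values are Day 5 minus Day 1 differences of the log2 fold change. They were positive for Tmem232 (4.91), Unc5cl (4.54), A330033J07Rik (4.67), Sptlc3 (8.76), Dnah12 (3.47), Wdpcp (3.52), Rp1 (6.17), Rgs22 (3.26) and Rit2 (4.26). They were negative for Cdh13 (-5.33), Rorb (-3.63), Tubb2a (-4.09), Megf11 (-9.57), Neat1 (-2.93), Traf5 (-4.00), Tubb2b (-4.03), Rpsa (-2.56) and Sumf1 (-2.69). The values of Sptlc3 and Megf11 rest on a vehicle group without a UMI. A330033J07Rik had 3 UMIs in the Day 1 FGF1 mice, Rit2 5, Rp1 5 and Tmem232 7. In the Day 5 vehicle mice Rp1 had 1, Wdpcp 4 and Tmem232 7, and Tubb2b had 7 in the Day 1 vehicle mice. With so few UMIs the differences of all these genes are no measure of size. Day and batch cannot be told apart here, and Megf11, Traf5, Rpsa and Sumf1 were not called without the Day 5 vehicle replicate 28. Without Day 5 vehicle replicate 38, Cdh13 (2.06, FDR 0.798), Rorb (-2.39, FDR 0.106) and Tubb2b (FDR 0.0749) were not called, and without Day 5 FGF1 replicate 37, Neat1 (-2.45, FDR 0.0512), Rpsa and Sumf1 were not.

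The Day 1 effect differed between ependymal and tanycyte nuclei for 19 named genes, by the same kind of test with the mouse as a block. Ependymal minus tanycyte differences were positive for the cilium genes Cfap43 (3.04), Ak7 (3.30), Dnah6 (3.90), Nek5 (3.91), Cfap126 (3.31), Lrriq1 (2.59), Ak9 (3.12), Cfap206 (3.99), Wdr63 (5.16) and Armc2 (2.67). They were negative for Tm4sf1 (-4.07), Timp3 (-2.33), Scn7a (-4.46), Gabrg3 (-2.08), Apbb2 (-1.87), Cald1 (-2.37), Clu (-1.66), Idh2 (-2.48) and Cdk5rap2 (-2.55). In the tanycyte FGF1 mice Wdr63 had 0 UMIs, Dnah6 and Cfap206 3 each, Nek5 and Ak9 4 each, and Cfap126 and Ak7 7 each. Scn7a had 1 UMI in the ependymal FGF1 mice. With so few UMIs the differences of these genes are no measure of size. Cfap43, Ak7, Dnah6 and Tm4sf1 were called with each of the 6 mice left out in turn. Nek5, Lrriq1, Cfap206 and Wdr63 were called in 5 of these 6 fits, Cfap126, Ak9 and Armc2 in 4, Timp3 in 3, Gabrg3 in 2, Apbb2, Cald1, Clu and Idh2 in 1 and Cdk5rap2 in 0. Scn7a was tested in 5 of them and called in 3.

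In the whole cells, 3 values stood apart from the other 5 mice of their group by Dixon's criterion, among 34 groups of 6 looked at, where chance gives about 1 in 20. They were S100a6 in vehicle replicate 22 (2.26e+03 CPM), Abca1 in FGF1 replicate 6 (39.8 CPM) and 2900052N01Rik in FGF1 replicate 6 (39.8 CPM). FGF1 replicate 6 held 19 cells and 21774 UMIs, and both of its values came from 1 UMI each.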

How the results depend on the processing

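The Day 1 count of 277 was 171 in DESeq2 (169 of them among the 277), ranged from 175 to 291 with 1 mouse left out, and was lowest without vehicle replicate 1 (175, 154 shared). The 30 Day 1 genes named for their p, the 15 smallest in each direction, kept their direction and their call in all 14 fits (420 values). Among these fits, the minimum of 5 nuclei left out no Day 1 mouse and repeats the main fit. The genes were picked by p from the same data, so this is no separate support for them. Members of the dynein, spoke and ribosomal lists lost calls in some of these fits, as given above. Same-numbered mice did not deviate together (correlations -0.0229, -0.143 and -0.0439), and with the replicate block 230 genes were called, 222 of them shared. The Day 5 count of 0 was 1 with RLE scaling, 5 without the filter on low counts, 2 within the 5% limit, 4 with at least 5 nuclei per mouse, and 0 to 57 with 1 mouse left out. No Day 5 vehicle mouse had 10 nuclei, so that minimum gave no value. The difference between days (120) was 277 without the filter, 70 with at least 5 nuclei, 21 at equal depth, and 45 (without Day 1 vehicle replicate 1) to 232 (without Day 5 vehicle replicate 38) with 1 mouse left out. It was 75, 76 and 73 without Day 1 FGF1 replicate 1, Day 1 vehicle replicate 2 and Day 5 FGF1 replicate 37. The difference from tanycytes (34) was 18 in DESeq2, 14 without the mouse block, and 13 (without vehicle replicate 3) to 29 with 1 mouse left out, with 19, 17, 19 and 21 without FGF1 replicate 1, vehicle replicates 1 and 2 and FGF1 replicate 3. The difference from astrocytes (0) was 3 in DESeq2, 3 without the filter, and 0 to 1 with 1 mouse left out. The whole-cell count (86) was 48 in DESeq2, 146 without the filter, 151 with the batch block and 23 with an absolute log2 fold change above 1. With 1 mouse left out it ran from 30 (vehicle replicate 29) to 151 (vehicle replicate 22), with 33, 41 and 143 without vehicle replicates 20, 25 and 35 and 38, 40 and 50 without FGF1 replicates 21, 10 and 36. The Day 1 difference in the share of nuclei (-0.215 percentage points) ranged from -0.541 to 0.0852 with 1 mouse left out, and turned positive without FGF1 replicate 1 (0.0852) or vehicle replicate 3 (0.0298). The Day 5 difference (0.287) ranged from -0.343 (without vehicle replicate 28) to 0.917, and was -0.0998 without FGF1 replicate 37. The cause of these changes was not tested. On Day 5 the 11 vehicle nuclei held 52521 UMIs.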
